A study of Macaca mulatta with 15 samples.

Results

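Platelet RNA was followed through 15 RNA-seq libraries of T cells by means of 9 genes that are characteristic of platelets and of megakaryocytes, the marrow cells that shed them. The 9 genes were PPBP, PF4, CLU, SPARC, ITGA2B, ITGB3, GP9, TREML1 and TUBB1, out of 34884 genes in the count table. Of these, 8 were found by the symbol in the row name and 1, ITGB3, by its gene ID, because its row carries no symbol. The genes were chosen with earlier results on the change with treatment and on the difference between the animals in view. Their levels before and after treatment, and in one animal against the other, are therefore given below as a description, without a test. The comparisons between T cell subsets were not used in choosing them and were tested.

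The T cells came from peripheral blood of 2 healthy rhesus macaques (Macaca mulatta), RhDBCb and RhM22. From each animal the labels list CD4+ naive, CD4+ memory, CD8+ naive and CD8+ memory T cells, taken either before treatment or after it. Treatment was 2-hydroxypropyl-beta-cyclodextrin, a ring-shaped sugar that takes up cholesterol, given under the skin as a 15% Kleptose HBP solution at 1 ml per kg per day for at most 120 days. The data used here held no CD8 naive library of RhDBCb from after treatment. This left 7 libraries of RhDBCb (4 before, 3 after) and 8 of RhM22 (4 before, 4 after). There was no untreated animal followed over the same time, so treatment and time between the draws cannot be told apart. The labels give neither the animals' ages nor how the subsets were separated from each other and from the rest of the blood. Libraries of 1 animal and 1 time are taken here as 1 draw, so n counts libraries that share 4 draws, and p-values measure only the spread between these samples.

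Platelets have no nucleus. They carry a stock of messenger RNA handed down from the megakaryocyte, in which transcripts of granule chemokines, integrins and the platelet tubulin are prominent. Platelets are known to stick to leukocytes in blood, and preparations of blood T cells therefore often hold some platelet RNA. In a bulk library, fewer platelets and less RNA per platelet cannot be told apart, and neither can platelet RNA and transcription of the same gene in the T cells themselves. No nucleotide or protein sequence is shown here, since no table used here held one for these genes.

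The libraries held between 44414963 and 71787211 counts. A floor of 3 counts corresponds to 0.0386 to 0.0699 CPM (the count relative to library size, scaled by TMM, which corrects for differences in RNA composition between libraries), and covers counting error only, because the reads carry no molecular identifiers. The T cell label held in every library: CD3E lay between 51.6 and 165.5 CPM, CD4 was at most 1.68 CPM in the 7 CD8 libraries and at least 206.7 CPM in the 8 CD4 libraries, while CD8A was 664.6 CPM or more in the former and did not exceed 3.93 CPM in the latter. The 4 libraries of RhDBCb before treatment held 13525 to 14750 genes with at least 1 count, against 14410 to 15445 in the other 11. Summed levels of 10 monocyte and dendritic cell markers were 3.85 to 11.8 CPM in RhDBCb before, 9.54 to 40.3 CPM in RhDBCb after, 30.3 to 49.9 CPM in RhM22 before and 26.0 to 62.9 CPM in RhM22 after.

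All 9 genes passed the filter on low counts, 5 of them with at least 1 library at 0. Together they made up 0.000297% to 0.00994% of the counts in a library. By the authors' FPKM, which divides by gene length, PPBP had the highest median over the 15 libraries at 4.34 FPKM, followed by PF4 at 1.00 FPKM. TUBB1 followed at 0.269 FPKM, TREML1 at 0.145 FPKM, GP9 at 0.0965 FPKM and ITGA2B at 0.0755 FPKM. ITGB3 (0.0113 FPKM), SPARC (0.00509 FPKM) and CLU (0.00486 FPKM) were the lowest. This order depends on the gene length behind the FPKM, whose definition is not given. By median CPM, which does not divide by length, ITGA2B and TUBB1 were alike at 1.36 CPM each. TREML1 was then at 0.678 CPM, ITGB3 at 0.617 CPM and GP9 at 0.212 CPM. By FPKM within libraries, PPBP exceeded PF4 in 15 of 15, PF4 exceeded TUBB1 in 12 and TUBB1 exceeded TREML1 in 12. On the same scale, TREML1 exceeded GP9 in 13 and ITGA2B exceeded ITGB3 in 14. ITGB3 exceeded SPARC in 10 and was lower in 4. GP9 and ITGA2B did not separate (GP9 higher in 7, lower in 8), nor did SPARC and CLU, each higher in 6 libraries. By mean CPM, PPBP ranked 5889 and PF4 ranked 8499 among 14814 tested genes.

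PPBP encodes the precursor of platelet basic protein, whose cleavage gives the neutrophil-attracting chemokine CXCL7 of the platelet alpha granule. In RhDBCb before treatment, PPBP was 2.33 CPM in CD4 naive, 1.13 CPM in CD4 memory, 2.81 CPM in CD8 naive and 1.36 CPM in CD8 memory cells. After treatment, the same animal had 15.3 CPM for CD4 naive, 13.9 CPM for CD4 memory and 9.19 CPM for CD8 memory cells. RhM22 before had 42.5, 24.6, 31.7 and 15.0 CPM in CD4 naive, CD4 memory, CD8 naive and CD8 memory cells, and 68.9, 19.3, 39.1 and 26.9 CPM in that order after. The 3 later libraries of RhDBCb lay above its 4 earlier ones, whereas the later and earlier libraries of RhM22 overlapped. Every library of RhM22 before lay above every library of RhDBCb before, by at least the gap between 2.81 and 15.0 CPM.

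PF4, platelet factor 4 or CXCL4, is the second chemokine of the alpha granule, binds heparin and is the immediate neighbour of PPBP in the RefSeq gene order. Its counts are uncertain, because the near-identical copy PF4V1 shares reads with it, as fractional counts show. PF4 in RhDBCb was 0.606, 0.0709, 0.0265 and 0.204 CPM before treatment in CD4 naive, CD4 memory, CD8 naive and CD8 memory cells, and 1.66, 1.43 and 0.861 CPM after it in the 3 subsets present. In RhM22, PF4 was 9.02, 6.52, 10.0 and 4.13 CPM before and 19.8, 6.38, 11.6 and 8.34 CPM after, in the same order of subsets. PF4 thus followed PPBP from draw to draw: RhDBCb before was lowest, RhDBCb after came next, and all 8 libraries of RhM22 were above both. PF4V1, counted apart, ranged from 0 CPM in 2 libraries to 4.25 CPM in the CD4 naive cells of RhM22 after treatment.

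CLU encodes clusterin, a secreted chaperone stored in alpha granules and also made by other cells. It was below 1 CPM throughout and at 0 in 4 libraries. CLU was 0, 0, 0.0132 and 0.102 CPM in RhDBCb before and 0, 0.227 and 0.189 CPM after. In RhM22 it was 0.407, 0.229, 0.258 and 0 CPM before, and 0.225, 0.943, 0.378 and 0.652 CPM after. The highest CLU level was thus in CD4 memory cells, where PPBP had its lowest level in that draw.

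SPARC encodes osteonectin, a collagen-binding protein of alpha granules and of connective tissue. It went its own way. SPARC was 2.34 CPM (132 counts) in the CD4 memory cells of RhDBCb before treatment, 0.305 CPM in CD8 memory cells of that draw and 0 in both naive subsets. In RhDBCb after, it was 0 for CD4 naive, 0.470 CPM for CD4 memory and 0.224 CPM for CD8 memory cells. RhM22 had 0.0204, 0.320, 0 and 0 CPM before and 0.193, 0.413, 0 and 0.123 CPM after, in CD4 naive, CD4 memory, CD8 naive and CD8 memory cells. All 3 CD8 naive libraries held 0 counts of SPARC and all 4 CD4 memory libraries held some.

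ITGA2B and ITGB3 encode the paired chains of the fibrinogen receptor, integrin alpha IIb beta 3; the alpha chain is largely restricted to the megakaryocyte line, whereas the beta chain also pairs with another alpha chain elsewhere. ITGA2B in RhDBCb was 0.0466, 1.36, 0.106 and 0.204 CPM before and 4.04, 2.20 and 1.58 CPM after. RhM22 had 2.99, 1.33, 3.09 and 1.07 CPM of ITGA2B before and 3.19, 1.24, 3.29 and 1.22 CPM after. In RhM22 the levels at the 2 times were alike in each subset, and both naive subsets stood above both memory subsets at each time.

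ITGB3 in RhDBCb before treatment was 0.0233 CPM in CD4 naive and 0 in CD8 naive cells, 1.19 CPM in CD4 memory and 1.48 CPM in CD8 memory cells. Like ITGA2B it was high in the CD4 memory library of that draw, but it departed from ITGA2B in the CD8 memory library, with 87 counts against 12. ITGB3 was 1.89, 1.05 and 0.757 CPM in RhDBCb after. RhM22 had 0.591, 0.472, 0.617 and 0.428 CPM before and 1.69, 0.442, 0.769 and 0.476 CPM after, the CD4 naive cells being highest at the later time.

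GP9 encodes the smallest chain of the von Willebrand factor receptor on platelets. No count of GP9 was found in the 4 libraries of RhDBCb before treatment, which allows up to 3 counts in the 4 together. After treatment, GP9 in that animal was 0.708 CPM for CD4 naive, 0.212 CPM for CD4 memory and 0.275 CPM for CD8 memory cells. RhM22 had 0.346, 0.168, 0.445 and 0.0165 CPM before and 0.514, 0.310, 0.168 and 0.300 CPM after. GP9 thus had at least 1 count in each of the 11 libraries other than those of RhDBCb before treatment. In CD8 memory cells of RhM22 before, it was 1 count, under the floor of 3 counts.

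TREML1 encodes TLT-1, a receptor of the alpha granule membrane that reaches the surface of activated platelets. It was 0.0233, 0, 0.662 and 0.102 CPM in RhDBCb before and 1.47, 0.606 and 0.603 CPM after. RhM22 had 1.45, 0.899, 1.31 and 0.428 CPM of TREML1 before and 2.74, 0.678, 1.79 and 0.934 CPM after. In all 7 naive and memory pairs from 1 draw, the memory cells had less TREML1. For CD4 cells of RhDBCb before, however, the pair is 1 count against 0, under the floor of 3 counts.

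TUBB1 encodes beta 1 tubulin, the main tubulin of the platelet's marginal microtubule ring. It was 0.0466, 1.47, 0.464 and 0.204 CPM in RhDBCb before and 2.72, 1.36 and 0.826 CPM after. RhM22 had 2.10, 1.62, 2.00 and 1.05 CPM before and 1.93, 0.722, 2.06 and 1.34 CPM after. The plot of levels by library shows TUBB1 overlapping between all 4 draws, unlike PPBP.

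**Figure D1:**
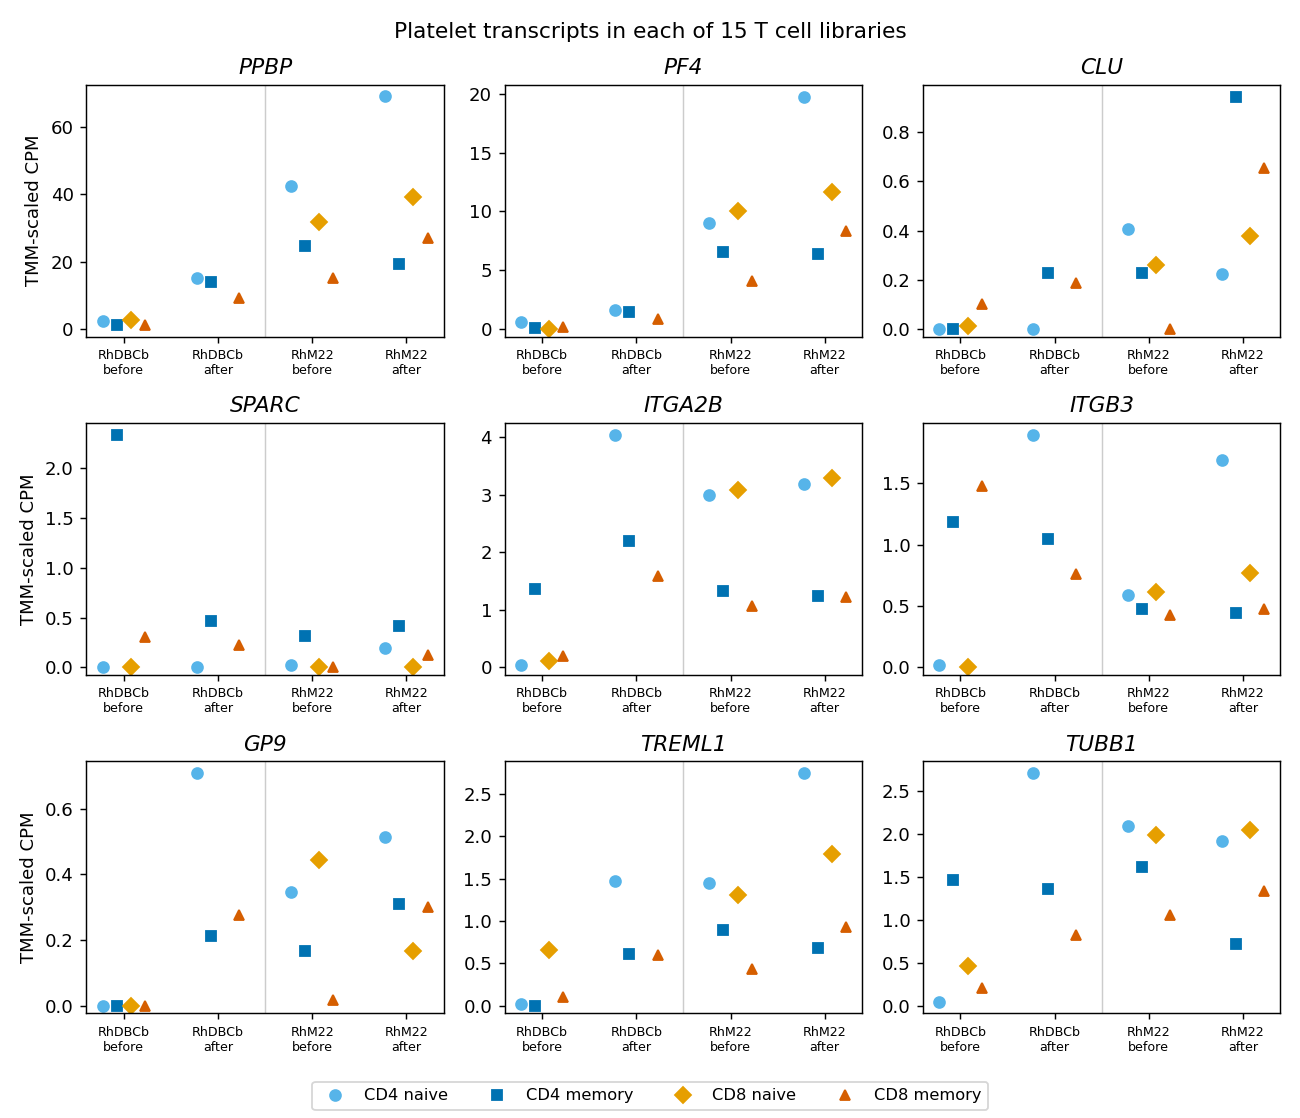
Level of each of the 9 genes in TMM-scaled CPM (linear axis, its range set for each gene) in the 15 libraries, grouped by animal and time, with 1 point per library and the subset shown by colour and shape. PPBP and PF4 are lowest in RhDBCb before (PPBP at most 2.81 CPM) and overlap between the 2 times in RhM22, whereas SPARC and ITGB3 are high in memory cells of that same draw (SPARC 2.34 CPM, ITGB3 up to 1.48 CPM).

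The CD4 memory library of RhDBCb before treatment stood apart in its make-up. It held 132 counts of SPARC, 83 of TUBB1, 77 of ITGA2B and 67 of ITGB3, against 64 counts of PPBP, 4 of PF4 and none of GP9, TREML1 or CLU. PPBP therefore made up 15.0% of the counts of the 9 genes there, compared with 34.3% to 75.8% in the other 14 libraries. In the CD8 memory library of the same draw, ITGB3 held 37.3% of the counts, with 87 counts against 80 for PPBP. In RhM22 the composition was even: PPBP made up 63.4% to 71.5% and PF4 15.2% to 21.0% of the counts in all 8 libraries.

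Summed over the 9 genes, the level was 3.08, 7.56, 4.08 and 3.95 CPM in CD4 naive, CD4 memory, CD8 naive and CD8 memory cells of RhDBCb before treatment. It was 27.8, 21.5 and 14.5 CPM in CD4 naive, CD4 memory and CD8 memory cells after. RhM22 had 59.4, 36.2, 49.4 and 22.2 CPM before and 99.2, 30.4, 59.2 and 40.3 CPM after. Between the subsets of 1 draw, the sum differed by 1.91-fold to 3.26-fold. Between the draws of 1 subset it differed by more: 32.2-fold in CD4 naive, 4.78-fold in CD4 memory, 14.5-fold in CD8 naive and 10.2-fold in CD8 memory cells. The gene length implied by the authors' FPKM, relative to PPBP, was 15.8 for ITGB3, 13.3 for CLU, 7 for SPARC and 5.2 for ITGA2B. Such genes weigh less on the FPKM scale, where the sum differed between draws 11.4-fold in CD4 memory and 19.3-fold in CD8 memory cells.

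**Figure D2:**
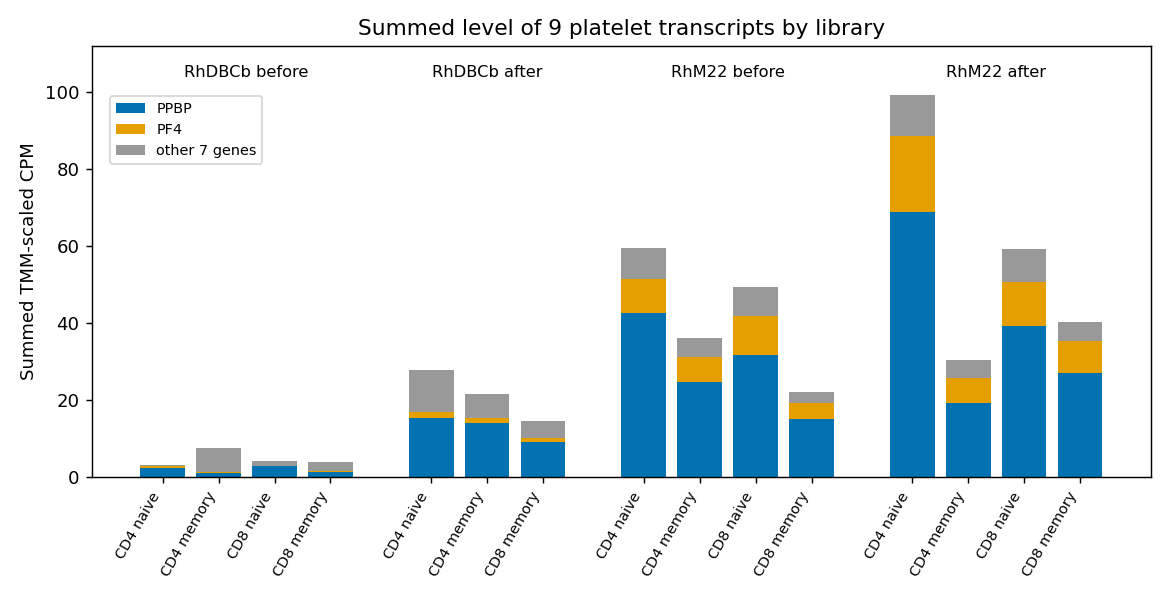
Summed TMM-scaled CPM of the 9 genes in each of the 15 libraries (1 bar per library, axis from 0), split into PPBP, PF4 and the other 7 genes. The sum runs from 3.08 CPM in CD4 naive cells of RhDBCb before treatment to 99.2 CPM in CD4 naive cells of RhM22 after it, and PPBP is the larger part of every bar of RhM22.

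The balance between the 2 chemokines was not the same in all draws. PF4 made up 17.5% to 24.8% of the counts of PF4 and PPBP together in the 8 libraries of RhM22. In RhDBCb after treatment, it made up 9.81% for CD4 naive, 9.27% for CD4 memory and 8.56% for CD8 memory cells, with exact (Clopper-Pearson) 95% intervals that span 6.42% to 11.5% over the 3 libraries. These intervals lay below those of all 8 libraries of RhM22, of which the lowest began at 16.0%; the intervals do not cover the spread between separate samples, and the 3 libraries share 1 draw. In RhDBCb before treatment the share was 20.6% (26 counts of PF4 and 100 of PPBP), 5.88% (4 and 64), 0.935% (2 and 212) and 13.0% (12 and 80), so that these 4 libraries give no common value and reach into the range of RhM22. With the counts of PF4V1 added to PF4, the shares were 12.3%, 11.3% and 10.7% in RhDBCb after and 20.6% to 27.9% in RhM22. Whether reads of PF4 and its copy were divided in the same way in both animals was not tested.

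**Figure D3:**
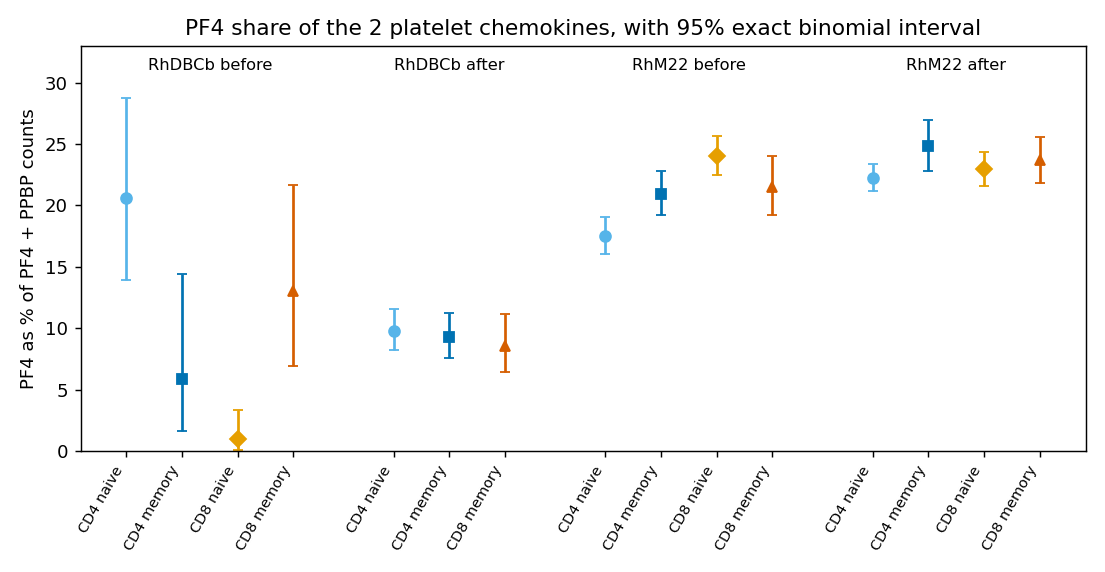
Counts of PF4 as a percentage of the counts of PF4 and PPBP together in each of the 15 libraries, with exact 95% binomial intervals, which cover counting error only. The 3 libraries of RhDBCb after treatment sit between 8.56% and 9.81%, below the 8 libraries of RhM22 at 17.5% to 24.8%, and the 4 libraries of RhDBCb before treatment scatter from 0.935% to 20.6%.

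The before and after samples of these healthy animals differ in cyclodextrin treatment and in time, which cannot be told apart here. In RhDBCb the summed level of the 9 genes was higher after than before in all 3 pairs of the same subset, 9.02-fold for CD4 naive, 2.84-fold for CD4 memory and 3.67-fold for CD8 memory cells. In RhM22 the ratio was 1.67 in CD4 naive, 0.842 in CD4 memory, 1.20 in CD8 naive and 1.82 in CD8 memory cells. The ratios of RhDBCb depended on the weight of PPBP. In CD4 memory cells the log2 ratio was 1.51 over all 9 genes, 0.23 without PPBP and 2.62 by FPKM. In CD8 memory cells it was 1.88, 1.03 and 2.65, and in CD4 naive cells 3.17, 4.07 and 2.89, in the same order.

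Gene by gene, PPBP, PF4, ITGA2B, GP9 and TREML1 were each higher after treatment in 6 of the 7 pairs, all 3 pairs of RhDBCb among them. CLU was higher in 5 pairs, ITGB3 and TUBB1 in 4 and SPARC in 3. The share of all tested genes with such counts of pairs was not worked out. In RhDBCb, all 3 libraries after treatment exceeded all 4 before it for PPBP, PF4, ITGA2B and GP9, an arrangement seen in 6.16% of all tested genes. No member showed it in RhM22, where 1.42% of tested genes did. Before treatment, all 4 libraries of RhM22 exceeded all 4 of RhDBCb for PPBP, PF4 and GP9 (14% of tested genes). For GP9, the lowest of these libraries of RhM22 held 1 count, under the floor of 3 counts. After treatment, all 4 libraries of RhM22 exceeded all 3 of RhDBCb for PPBP and PF4 (6.74% of tested genes). The choice of the members had the differences between times and between animals in view, so these shares do not test them.

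The fitted log2 difference, after minus before, in RhDBCb was 2.93 (SE 0.28) for PPBP, 2.80 (SE 0.57) for PF4, 2.77 (SE 0.87) for ITGA2B and 3.11 (SE 0.96) for TREML1. TUBB1 differed by 1.75 (SE 0.81), CLU by 1.98 (SE 1.60), ITGB3 by 0.78 (SE 1.23) and SPARC by -1.23 (SE 1.44). Each animal has 1 draw per time. These SEs, and those of RhM22 below, therefore hold the scatter between subsets and no spread between separate draws. For GP9 only a bound can be given: it was at least 32.8-fold higher after, set against 3 counts over the 4 earlier libraries. Several of these values rest on single libraries of RhDBCb before treatment. ITGA2B ranged from 2.14 without CD4 naive to 4.52 without CD4 memory, and TUBB1 from 1.09 to 3.09 without the same libraries. TREML1 ranged from 2.44 without CD4 naive to 4.16 without CD8 naive, and ITGB3 from 0.08 without CD4 naive to 2.13 without CD8 memory. CLU ranged from 1.177 without CD4 memory after treatment to 4.18 without CD8 memory before it, and SPARC from -2.64 without CD8 memory after to -0.47 without CD4 memory before. PPBP stayed between 2.64 and 3.18, and PF4 between 2.38 and 3.53.

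In RhM22 the same difference was 0.40 (SE 0.24) for PPBP, 0.54 (SE 0.45) for PF4, 0.09 (SE 0.72) for ITGA2B, 0.49 (SE 0.75) for TREML1 and -0.08 (SE 0.69) for TUBB1. SPARC had the highest value in that animal at 2.53 (SE 1.60), opposite in sign to RhDBCb; GP9 and CLU were at 0.73 each (SE 0.98 and 1.44) and ITGB3 at 0.59 (SE 1.08). Leaving out 1 library moved PPBP in RhM22 from 0.17 (without CD4 naive after) to 0.59 (without CD4 memory after) and SPARC from 0.75 to 3.55 (without the same libraries). The median over the 9 genes was 2.77 in RhDBCb and 0.54 in RhM22, against 0.00 and 0.01 over all tested genes. In each animal, 8 of 9 members were above 0, the exception being SPARC in RhDBCb and TUBB1 in RhM22. Of all tested genes, 50.1% were above 0 in RhDBCb and 51% in RhM22. The change in RhM22 minus that in RhDBCb was below 0 for 8 of 9 members (7446 of 14814 tested genes), with a median of -2.26, the exception being SPARC. Over both animals, PPBP differed by 1.51 (SE 0.39) and PF4 by 1.44 (SE 0.46), and all 9 members were above 0 (51% of tested genes).

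Several other measures moved with this difference between draws. The monocyte and dendritic cell markers and the number of genes detected reached their lowest values in RhDBCb before treatment, with ranges that overlap those of RhDBCb after, as given above. In pairs, the marker sum went from 11.8 to 9.54 CPM in CD4 naive cells of RhDBCb, in which the 9 genes differed most, from 9.87 to 40.3 CPM in its CD4 memory and from 6.74 to 11.7 CPM in its CD8 memory cells. Of this list LYZ had the highest mean (10.4 CPM) and was 0.0265 to 4.62 CPM in RhDBCb before and 1.33 to 14.7 CPM after. CD1C reached higher in single libraries, up to 32.2 CPM in RhM22 before and 45.4 CPM after, and at most 2.11 CPM in RhDBCb. Neutrophil markers summed to at most 2.49 CPM in any library, with S100A12 and MMP8 at 0 in all 15, and the CD34 of progenitors was at 0 in all 15. Erythroid markers summed to 0.0265 to 2.20 CPM, with SLC4A1 at 0 throughout. The leading markers of the other lists ranged over the 15 libraries up to 102.5 CPM for CD79A (B cells), 61.9 CPM for KLRF1 (natural killer cells), 960.9 CPM for GZMB (plasmacytoid dendritic cells, and also a gene of cytotoxic T cells), 1.76 CPM for CSF3R, 2.00 CPM for HBA1, 3.63 CPM for CLDN5 (endothelium) and 3.89 CPM for KIT. The part of monocytes and of library complexity in the result was not tested.

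Between subsets, PPBP was lower in memory than in naive cells in both lineages. The difference, memory minus naive within a draw, was -0.93 log2 units in CD4 cells (SE 0.25, adjusted p = 0.0272 by edgeR's quasi-likelihood test with Benjamini-Hochberg adjustment, lower in 4 of 4 draws). In CD8 cells it was -0.90 (SE 0.27, adjusted p = 0.0356, edgeR, lower in 3 of 3 draws). PPBP was the 1 member of 9 called in each lineage, where 11.5% of tested genes were called in CD4 and 16.5% in CD8 cells (4.71% and 6.6% in the lower direction). A count of 1 in 9 is near that background and says nothing about the 9 genes as a group.

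Both calls of PPBP were fragile. They rest on comparing subsets of the same draw: without the draw in the model, the differences were -1.07 (adjusted p = 0.829, edgeR) in CD4 and -1.09 (adjusted p = 0.746, edgeR) in CD8 cells. With the time of each subset and the animal in place of the draw, they were -0.72 (adjusted p = 0.521, edgeR) and -0.41 (adjusted p = 0.754, edgeR). The CD4 call was also lost without CD4 memory of RhDBCb before (adjusted p = 0.089), CD4 naive of RhM22 before (0.084), CD4 naive of RhM22 after (0.102) or CD4 memory of RhM22 after (0.125). The CD8 call was lost without any 1 of 6 CD8 libraries, with an adjusted p of 0.0582 to 0.166: CD8 naive of RhDBCb before, CD8 memory of RhDBCb before and after, CD8 naive and memory of RhM22 before, and CD8 naive of RhM22 after.

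Over the 9 members, 5 were below 0 in CD4 and 6 in CD8 cells, where 7691 and 7160 of 14814 tested genes were. TREML1 did not pass the test, with -1.29 (SE 0.77, adjusted p = 0.324, edgeR) in CD4 cells and -2.08 (SE 0.87, adjusted p = 0.126, edgeR) in CD8 cells. PPBP and TREML1 were the 2 members lower in memory cells in all 7 pairs, TREML1 by 1 count in 1 of them, and 10.3% of tested genes had this pattern. In CD4 cells alone, PPBP, PF4 and TREML1 were lower in all 4 draws (17.6% of tested genes), and in CD8 cells PPBP, TREML1 and TUBB1 were lower in all 3 (23.4% of tested genes). PF4 was lower in 4 of 4 draws in CD4 cells (-1.17, SE 0.49, adjusted p = 0.149, edgeR) and in 2 of 3 in CD8 cells (-0.41, SE 0.53, adjusted p = 0.654, edgeR). TUBB1 was lower in 3 of 3 draws in CD8 cells (-0.93, SE 0.75, adjusted p = 0.446, edgeR), whereas in CD4 cells it was lower in 3 of 4 draws with a fitted difference of 0.25 (SE 0.75). That value was -0.59 without CD4 memory and -0.38 without CD4 naive of RhDBCb before.

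Memory minus naive was above 0 for CLU in both lineages, at 1.26 (SE 1.48) in CD4 and 1.11 (SE 1.57) in CD8 cells, for ITGB3 in CD8 cells (0.70, SE 1.32) and for ITGA2B in CD4 cells (0.18, SE 0.80), none past the test. ITGB3 in CD4 cells was at -0.22 (SE 1.16), ITGA2B in CD8 cells at -1.01 (SE 0.83), and GP9 at -1.10 (SE 1.04) and -1.185 (SE 1.28).

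SPARC had the highest values. In CD4 cells it was higher in memory than in naive cells in 4 of 4 draws, by 4.11 log2 units (SE 1.53), without passing the test (adjusted p = 0.114, edgeR). The value ranged from 3.20 without CD4 naive of RhDBCb before to 6.32 without CD4 naive of RhM22 after. In CD8 cells, with 38 counts over 4 memory libraries and 0 over 3 naive ones, it was at least 11.7-fold higher in memory cells, set against 3 counts over the naive libraries (adjusted p = 0.0670, edgeR). DESeq2 called SPARC higher in both lineages, with an adjusted p of 0.0264 in CD4 and 0.0164 in CD8 cells, and called TREML1 lower in CD8 memory cells (adjusted p = 0.0477). Monocyte and dendritic cell markers summed to 9.54 to 62.3 CPM in CD4 naive, 9.87 to 62.9 CPM in CD4 memory, 3.85 to 41.8 CPM in CD8 naive and 6.74 to 49.9 CPM in CD8 memory cells. Single markers of that list were higher in CD4 memory cells: LYZ in 3 of 4 draws (14.7 against 1.33 CPM in naive cells of RhDBCb after, 17.9 against 1.43 CPM in RhM22 before and 24.1 against 7.87 CPM after), though not past the test (1.40, adjusted p = 0.439, edgeR). CSF1R, singled out after its value was seen, was called higher (1.49, adjusted p = 0.0491, edgeR). CD1C of the same list went the other way (-0.50, adjusted p = 0.775, edgeR), and it reached 45.4 CPM in 1 library. The part of these markers in the memory and naive differences was not tested. Of 5 fibroblast markers, 1 passed the filter, COL1A1. The 5 summed to 3.99 CPM at most, in a CD4 naive library, and their part in the SPARC difference was not tested.

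**Figure D4:**
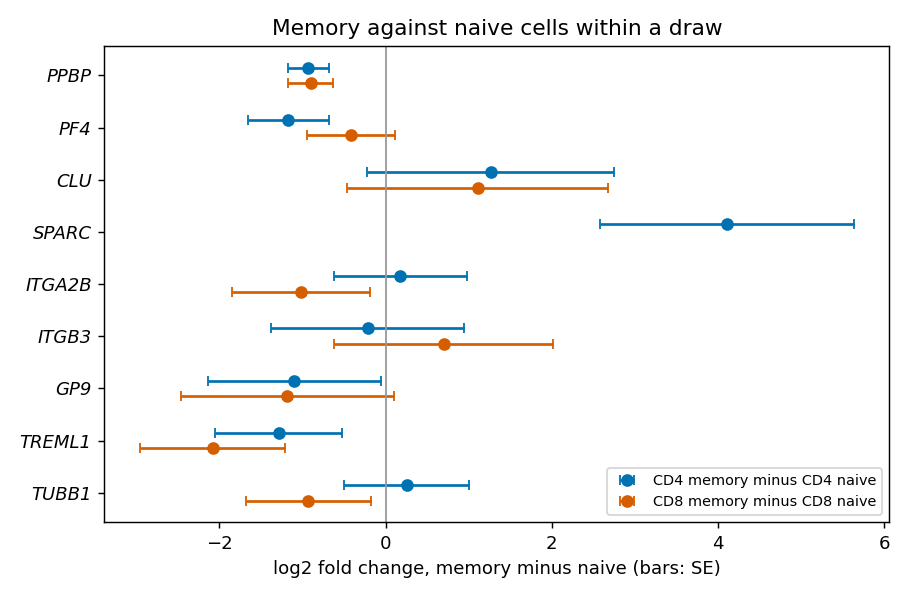
Fitted log2 fold change, memory minus naive, of each gene in CD4 and CD8 cells (point, with bars of 1 SE), from the model with draw and subset; SPARC in CD8 cells is left out because all CD8 naive libraries hold 0 counts. PPBP has the narrowest bars, at -0.93 and -0.90, and SPARC in CD4 cells lies at 4.11 with an SE of 1.53.

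CD8 and CD4 cells of the same stage gave no call. Of the 9 members, 0 were called between CD8 and CD4 naive cells, where 3.37% of tested genes were, with 1 member at an unadjusted p under 0.05. Between CD8 and CD4 memory cells, 0 were called against 8.24% of tested genes, with 0 at an unadjusted p under 0.05. DESeq2 also called 0 members in both comparisons. With 9 members, 0 calls is near the background and does not show that the lineages are alike. ITGA2B was lower in CD8 than in CD4 memory cells in 4 of 4 draws (-1.27, SE 0.79, adjusted p = 0.398, edgeR), a value of 0.13 without CD4 memory of RhDBCb before, and higher in CD8 than in CD4 naive cells in 3 of 3 draws with a fitted difference of -0.08 (SE 0.81). SPARC was lower in CD8 than in CD4 memory cells in 4 of 4 draws (-2.51, SE 1.31, adjusted p = 0.308, edgeR). In naive cells, SPARC had 13 counts over the 4 CD4 libraries and 0 over the 3 CD8 libraries (adjusted p = 0.364, edgeR). PPBP differed by -0.23 (95% interval -0.81 to 0.35) between CD8 and CD4 naive cells and by -0.20 (95% interval -0.73 to 0.33) between memory cells. The memory effect on PPBP differed between the lineages by 0.03 (SE 0.36, adjusted p = 1, edgeR, 95% interval -0.75 to 0.81), and 0 members were called in that comparison, where 0.0878% of tested genes were.

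The members were not a uniform block over the 15 libraries, which share draws and differ in depth. Spearman's rho with PPBP was 0.96 for PF4, 0.90 for TREML1, 0.75 for GP9, 0.68 for TUBB1, 0.67 for CLU and 0.61 for ITGA2B. It was 0.09 for ITGB3 and -0.24 for SPARC. Among 12628 other genes with a symbol, the 10 whose log2 CPM was most like the summed level were PF4V1 (rho 0.96), CSKMT (0.95), TPCN1 (0.95), OTUD5 (0.94), EFNB1 and RDH11 (0.94 each), IL17RA (0.93), CISH and FOXO1 (0.93 each) and ENO2 (0.93). They span a wide range of abundance, from PF4V1 at a mean of 1.08 CPM and EFNB1 at 7.31 CPM to FOXO1 at 248.8 CPM, against 20.9 CPM for PPBP. PF4V1 shares reads with PF4, a part of the summed level, so its likeness to that sum is not independent of it. With deviations from the mean of each draw, 1 of the 10, CSKMT, was again among the 10 most alike, and the other 9 were not.

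A wider list of 56 further platelet and megakaryocyte genes held 53 that matched the table and 44 that were tested. Some were more abundant than the members, such as the thromboxane receptor TBXA2R at 22.4 to 59.7 CPM (rho with the summed level 0.66). Of the 44, 16 had a rho above 0.5 with the summed level of the 9 members and 1 above 0.9, with a median of 0.30 against 0.04 over all candidates. Of all 12628 candidates, 24 were above 0.9. Many other genes also passed 0.5: PEAR1, the lowest of the 16 at a rho of 0.53, ranked 2242 among the candidates. RGS18, a brake on G protein signalling in platelets, averaged 0.138 CPM in RhDBCb before, 0.843 CPM after, 4.78 CPM in RhM22 before and 7.28 CPM after. F13A1, the A chain of coagulation factor XIII, averaged 0.293, 1.36, 4.64 and 4.86 CPM in the same order. CAVIN2 and NRGN, picked after their values were seen, averaged 0.0109 and 0.241 CPM in RhDBCb before, 2.48 and 1.13 CPM after, 3.88 and 1.56 CPM in RhM22 before and 3.86 and 2.03 CPM after. Among the more abundant genes of the list, TBXA2R (rho 0.66) and GNG11 (mean 5.89 CPM, rho 0.70) went with the summed level. Others did not. PDLIM1 averaged 65.2, 94.2, 9.01 and 9.23 CPM in the same order of draws (rho -0.64), and PTGS1, the cyclooxygenase of the platelet thromboxane pathway, 11.6, 9.77, 7.30 and 7.44 CPM (rho -0.53). CD9 averaged 48.0, 30.4, 16.9 and 20.2 CPM (rho -0.32), and PROS1 47.6, 39.6, 31.01 and 23.5 CPM (rho -0.06).

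Between subsets the wider list went both ways. In CD4 cells, 4 of the 44 rose and 3 fell from naive to memory, where 6.82% of tested genes rose and 4.71% fell. In CD8 cells 6 rose and 6 fell, where 9.93% of tested genes rose and 6.6% fell. GNG11, a G protein gamma chain abundant in platelets, fell by 1.84 log2 units in CD4 memory (adjusted p = 0.00328, edgeR) and by 2.08 in CD8 memory cells (adjusted p = 0.00165, edgeR). CALD1, caldesmon of the actin cytoskeleton, fell by 2.85 and 2.46 log2 units. The anticoagulant cofactor PROS1 fell by 1.35 in CD4 and 0.77 in CD8 cells. The tetraspanin CD9, in contrast, rose by 2.30 and 2.23, the thrombin receptor F2R by 3.92 and 3.01 and the LIM protein PDLIM1 by 3.66 and 3.45 log2 units, each past the threshold in both lineages. PTGS1 also rose in both, by 1.07 (adjusted p = 0.015, edgeR) and 1.87 (adjusted p = 0.000809, edgeR). Coagulation factor F5 rose in CD8 cells by 3.81 (adjusted p = 0.000719, edgeR) and was at 1.09 in CD4 cells (adjusted p = 0.148, edgeR). Tropomyosin TPM1 fell in CD8 memory cells by 0.89 (adjusted p = 0.0393, edgeR) and was at -0.44 in CD4 cells (adjusted p = 0.298, edgeR). By role, the transcription factors of megakaryocytes gave no call in 3 tested genes, with mean levels of 0.304 CPM for NFE2, 0.106 CPM for GFI1B and 0.0787 CPM for MEIS1. In after minus before over all subsets, 31 of the 44 were above 0 with a median of 0.38. Over all tested genes, 51% were above 0 with a median of 0.01.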

How the data were processed

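RNA was measured in 15 libraries made with SMART-Seq v4 from poly(A) RNA, a kit that does not mark strand. The deposited table of expected counts was made by the authors with RSEM 1.3.3, after cutadapt 1.18 and STAR 2.7.6a on Mmul_10 (rheMac10), per the submitters' processing notes. The authors' FPKM table has 28331 genes, and the gene length and scale behind it are not given in the sources used here. Expected counts were rounded (totals moved by at most 26.1), genes were filtered by edgeR's filterByExpr per group with a minimum count of 10, and 14814 of 34884 genes were tested. CPM were scaled by TMM. Symbols were taken from the row names, and for 933 rows without one from the gene ID table.

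Subsets were compared with edgeR 4.0.16 (R 4.3.3, quasi-likelihood test, Benjamini-Hochberg over all tested genes at 0.05) in a model of draw and subset. Time was fitted with subset and animal. The draw (the animal and time in the labels) is the pairing, and the deviations of RhM22 from the group mean correlated between the 7 groups with both animals (21 correlations, r from 0.195 to 0.501 over genes). The fits were tested on simulated counts. Members and gene lists were chosen with earlier results of these data known. The genes named were all 9 members, the 3 most abundant of each role in the wider list, the 10 most alike, lineage genes and leading markers of other cell types. Alternatives were a model of subset by time plus animal, no draw term, no filter, DESeq2 1.42.0, other scalings and each library left out.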

Additional observations from a re-analysis of the deposited data

How the results depend on the processing

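Low counts in RhDBCb before treatment limit GP9 (0 counts), CLU (7 in the 4 libraries) and PF4 (44 in the 4 libraries). Genes called, memory against naive, numbered 1708 in CD4 and 2448 in CD8 cells; with subset by time plus animal they numbered 830 and 1245, without the draw as replicate block 238 and 427, and by DESeq2 2694 in CD4 cells. Members called, 1 in each lineage, were 0 and 0 under both other models, 2 by DESeq2 in CD4 and 3 in CD8 cells. CD8 against CD4 gave 499 genes in naive and 1221 in memory cells; with subset by time plus animal 247 and 603, without the replicate block 102 and 179, by DESeq2 1086 and 2065. After against before gave 1 gene over all subsets (0 without the replicate block, 177 by DESeq2), 1499 in RhDBCb (2515 by DESeq2), 9 in RhM22 (233 by DESeq2) and 679 for the difference between the animals (1698 by DESeq2). Beyond the models and tools named, the cause of these differences in count was not tested. The counts for RhDBCb, for RhM22 and for the difference between the animals rest on 1 draw per animal and time. They hold no spread between separate draws.

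Leaving out 1 library at a time gave 1052 to 2188 genes for CD4 memory against naive, 1371 to 2658 for CD8, 316 to 612 for CD8 against CD4 naive and 766 to 1392 for CD8 against CD4 memory cells. Members called ranged from 0 to 1 in CD4 and from 0 to 2 in CD8 cells. After against before ranged from 0 to 3 genes over all subsets, 225 to 2188 in RhDBCb (lowest without CD4 naive after), 0 to 12 in RhM22 and 99 to 1314 between the animals (lowest without CD8 naive of RhM22 before), where 1 to 2 members lay above 0.

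The called differences of the members, PPBP in CD4 and in CD8 cells, did not change sign. Calls in the wider list of platelet genes were not followed through these alternatives. Among uncalled memory minus naive differences, ITGA2B in CD4 cells was -0.26 with subset by time plus animal and -0.63 without the replicate block, ITGB3 0.102 and 0.0779, and TUBB1 -0.0186 and -0.316; without the block CLU in CD8 cells was -0.61, and PF4 in CD8 against CD4 naive cells 0.0908. Leaving out 1 library, the CD4 values ranged from -0.91 to 0.72 for ITGA2B, -0.87 to 0.47 for ITGB3 and -0.59 to 0.75 for TUBB1. In CD8 cells they ranged from -0.88 to 0.12 for PF4, -0.23 to 2.03 for CLU, -0.30 to 1.61 for ITGB3 and -2.28 to 0.28 for GP9. In CD8 against CD4 naive cells PPBP ranged from -0.423 to 0.012 and ITGA2B from -0.50 to 0.43, in memory cells PPBP from -0.389 to 0.039, PF4 from -0.27 to 0.22 and ITGA2B from -1.72 to 0.13. The difference of the memory effect on PPBP between lineages ranged from -0.19 to 0.33. That comparison, the sum without SPARC, likeness within draws and PF4 plus PF4V1 were chosen after seeing the data.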
